A study of Homo sapiens with 24 samples.

Results

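Metallothioneins are small cysteine-rich proteins that bind zinc, copper and cadmium in the cytosol, and SLC30A1 (ZnT1) is the plasma membrane transporter that moves zinc out of the cell. When free zinc rises, the transcription factor MTF1 binds metal response elements in the promoters of these genes and raises their transcription, so their mRNA is commonly read as a gauge of zinc or cadmium exposure. Glucocorticoids and cytokines such as IL-6 are also known inducers of MT2A.

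The genes described here are MT2A, MT1E, MT1F, MT1G and SLC30A1, which are 5 of the 6 named genes and 5 of the 16591 genes of the expression table. MT1X, the remaining named metallothionein, was not analysed here. The genes were taken by name as genes of the MTF1 zinc response, and were chosen on drug changes already known from these same libraries, among them the rise of MT2A in BT549 cells at day 5. Their changes under drug are therefore given as values, without a test.

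The study treated 4 human cancer cell lines with EPZ015666, a small-molecule inhibitor of the arginine methyltransferase PRMT5, at 5 µM, or with the vehicle DMSO. The groups were BT549 (breast) with EPZ015666 for 5 days, with DMSO for 5 days, with EPZ015666 for 3 days and with DMSO for 3 days; OVCAR8 (ovarian) in the same 4 groups; COV362 (ovarian) with EPZ015666 and with DMSO for 5 days; and MDAMB436 (breast) with EPZ015666 and with DMSO for 5 days. Each of the 12 groups had 2 poly(A) RNA-seq libraries, labelled A and B, so there were 24 in all. Nothing in the labels tells if A and B were grown apart, so each SD or p-value here covers only library-to-library spread, possibly a technical one. With 2 libraries in each group, 2 groups can easily lie apart without a real difference. The share of all genes whose groups lay apart was not worked out, so a lack of overlap is only a description.

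The libraries held 23.8 M to 45.0 M reads recovered from the deposited RPKM values (reads per kilobase of gene, scaled to a total set for each library). That scaling total was not the recovered total. It was 25.0 M against 26.7 M recovered reads in BT549 DMSO day 5 replicate A. In BT549 EPZ015666 day 5 replicate A it was 24.6 M against 24.8 M. The mesenchymal marker VIM was abundant in all 4 lines, with medians of 47.9 to 121 RPKM. Other mesenchymal markers were lower. FN1 had medians of 10.65 RPKM in OVCAR8, 3.47 in BT549, 1.93 in COV362 and 0.431 in MDAMB436. ZEB1 was at most 0.42 RPKM and CDH2 at most 1.27 RPKM in any library. The epithelial marker KRT18 had medians of 173 RPKM in OVCAR8, 118 in COV362, 49.2 in MDAMB436 and 8.80 in BT549. KRT8 had 25.7 RPKM in OVCAR8 and 18.8 in COV362, but 1.25 in MDAMB436 and 0.043 in BT549. EPCAM had 1.69 RPKM in COV362, 0.637 in OVCAR8, 0.062 in MDAMB436 and 0.0005 in BT549. KRT19 had 34.9 RPKM in COV362 and was at most 0.172 RPKM in any library of the other lines. Of the ovarian markers, MSLN at day 5 averaged 6.83 RPKM with EPZ015666 and 47.3 RPKM with DMSO in OVCAR8, and 4.73 RPKM with EPZ015666 and 22.2 RPKM with DMSO in COV362. PAX8, WT1 and MUC16 were under 1 RPKM in both ovarian lines, where the values divide by the whole gene span, introns included. PAX8 had medians of 0.332 RPKM in COV362 and 0.070 in OVCAR8, against 0 in BT549 and 0.0002 in MDAMB436. MUC16 had 0.494 RPKM in COV362 and 0 in OVCAR8, against 0.144 in MDAMB436 and 0.0014 in BT549. WT1 was lower in OVCAR8 than in BT549. Of the breast markers, GATA3 had a median of 4.68 RPKM in BT549 and 0.06 RPKM in MDAMB436. The endothelial marker PECAM1 was at or near 0 in every line. The blood marker CD14 was not, with medians of 4.44 RPKM in MDAMB436, 1.275 in COV362, 0.977 in BT549 and 0.533 in OVCAR8. Reads of ribosomal RNA loci made up a median of 0.289% of a library, but 4.54% in OVCAR8 EPZ015666 day 5 replicate B and 1.39% in BT549 EPZ015666 day 3 replicate A.

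The 4 metallothionein genes lie together on the long arm of chromosome 16 (GRCh38, GENCODE release 29). MT2A spans chr16:56608199-56609497 and MT1E chr16:56625475-56627112, both on the plus strand. MT1F spans chr16:56657694-56660698 on the plus strand and MT1G chr16:56666731-56668065 on the minus strand. SLC30A1 spans chr1:211571568-211578742 on the minus strand. None of the 5 overlaps another annotated gene. The coding sequences of the metallothioneins are near copies of one another, which limits how surely a read can be given to one gene. The coding sequences of MT2A and MT1E, the 2 most abundant members, are shown with the bases at which they differ in capitals.
MT2A: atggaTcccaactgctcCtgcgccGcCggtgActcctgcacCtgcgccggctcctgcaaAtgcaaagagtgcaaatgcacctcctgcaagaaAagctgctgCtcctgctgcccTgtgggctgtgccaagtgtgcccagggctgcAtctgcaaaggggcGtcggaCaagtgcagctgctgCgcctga
MT1E: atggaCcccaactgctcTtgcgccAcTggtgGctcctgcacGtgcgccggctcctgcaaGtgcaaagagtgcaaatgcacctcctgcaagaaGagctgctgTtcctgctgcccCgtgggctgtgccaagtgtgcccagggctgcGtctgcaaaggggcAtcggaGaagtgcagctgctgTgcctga
They differ at 14 of 186 bases, an identity of 92.5%, and in each 20 of the 61 codons before the stop encode cysteine, the residue that holds the metal. MT1G was 95.2% identical to MT2A over the coding sequence and 94.6% identical to MT1E. Over whole transcripts the longest identical run was 32 bases between MT2A and MT1E, 70 bases between MT2A and MT1G, 85 bases between MT1E and MT1G, and 92 bases between MT1G and the related MT1H. How the authors' counting treated reads that match several genes is not given in the sources used here, so MT1G values in particular may hold reads of other family members.

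The promoters of MT2A and SLC30A1 are shown because both genes are textbook targets of MTF1. The capitals mark matches to the core of the metal response element, searched as TGCACNC and TGCGCNC on both strands, so that a match on the other strand reads GNGTGCA or GNGCGCA. The windows run from 250 bases before to 50 bases after the RefSeq transcription start (GRCh38.p14), which differs from the GENCODE gene start.
MT2A, chr16:56608334-56608633, plus strand: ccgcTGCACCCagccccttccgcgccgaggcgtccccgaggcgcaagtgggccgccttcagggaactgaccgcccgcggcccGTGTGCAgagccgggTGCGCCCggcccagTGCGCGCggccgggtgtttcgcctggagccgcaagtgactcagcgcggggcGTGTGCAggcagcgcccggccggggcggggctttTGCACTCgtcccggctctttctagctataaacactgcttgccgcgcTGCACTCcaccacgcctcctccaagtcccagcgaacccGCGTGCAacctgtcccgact
SLC30A1, chr1:211579112-211579411, minus strand: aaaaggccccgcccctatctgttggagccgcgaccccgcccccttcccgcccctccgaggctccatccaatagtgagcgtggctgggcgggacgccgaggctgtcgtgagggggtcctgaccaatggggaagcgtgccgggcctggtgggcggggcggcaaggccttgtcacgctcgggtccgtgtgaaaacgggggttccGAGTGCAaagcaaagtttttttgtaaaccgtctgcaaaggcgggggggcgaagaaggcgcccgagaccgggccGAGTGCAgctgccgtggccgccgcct
The MT2A window held 8 matches, and 0.0199% of the 35116 RefSeq promoter windows of 300 bases held at least as many. The SLC30A1 window held 2 matches, and 8.6% of windows held at least as many. At least 1 match was present in 29.6% of all windows. A match is a stretch of letters and not a measured binding site.

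**Figure D1:**
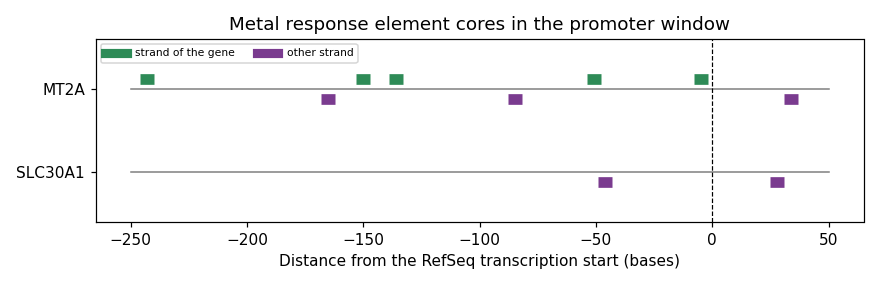
Position of each metal response element core match in the promoter windows of MT2A (above) and SLC30A1 (below), in bases from the RefSeq transcription start (dashed line); green bars above the line are on the strand of the gene and purple bars under it on the other strand. MT2A has 8 matches spread from position -246 to past the start, and SLC30A1 has 2.

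MT2A, the main metallothionein of most human tissues, was the most abundant member in every library. In BT549 at day 5 it had 191 and 195 RPKM with EPZ015666, against 87.5 and 90.6 RPKM with DMSO. Both drug libraries lay above both vehicle libraries, by 2.17-fold, and the fitted change was 1.11 ± 0.055 (SE) on the log2(RPKM + 1) scale, which understates changes of low genes. Day 3 BT549 cultures had 130 and 135 RPKM with EPZ015666, against 92.5 and 99.1 RPKM with DMSO, a ratio of 1.38 and a log2 change of 0.47 ± 0.055. Within the drug-treated BT549 cultures it was thus higher at day 5 (193 ± 2.69 RPKM, SD, n = 2) than at day 3 (133 ± 3.94 RPKM, SD, n = 2). These are levels in bulk RNA: a change in the share of cells that express a gene and a change per cell cannot be told apart.

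MT2A also stood higher under the drug in COV362 and MDAMB436, and lower in OVCAR8 at day 5. COV362 cells had 140 and 148 RPKM with EPZ015666, against 108 and 108 RPKM with DMSO, a log2 change of 0.41 ± 0.036. MDAMB436 cells had 102 and 104 RPKM with EPZ015666, against 88.1 and 76.4 RPKM with DMSO, a log2 change of 0.32 ± 0.075. In both lines the drug and vehicle libraries did not overlap. OVCAR8 cells at day 5 had 512 and 521 RPKM with EPZ015666, against 600 and 588 RPKM with DMSO, and here both drug libraries lay below both vehicle libraries, with a log2 change of -0.20 ± 0.045. The OVCAR8 drug library with 4.54% ribosomal reads was the higher of the 2, so the difference was as large without it. At day 3 the OVCAR8 libraries overlapped, with 532 and 500.0 RPKM with EPZ015666 and 521 and 545 RPKM with DMSO.

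**Figure D2:**
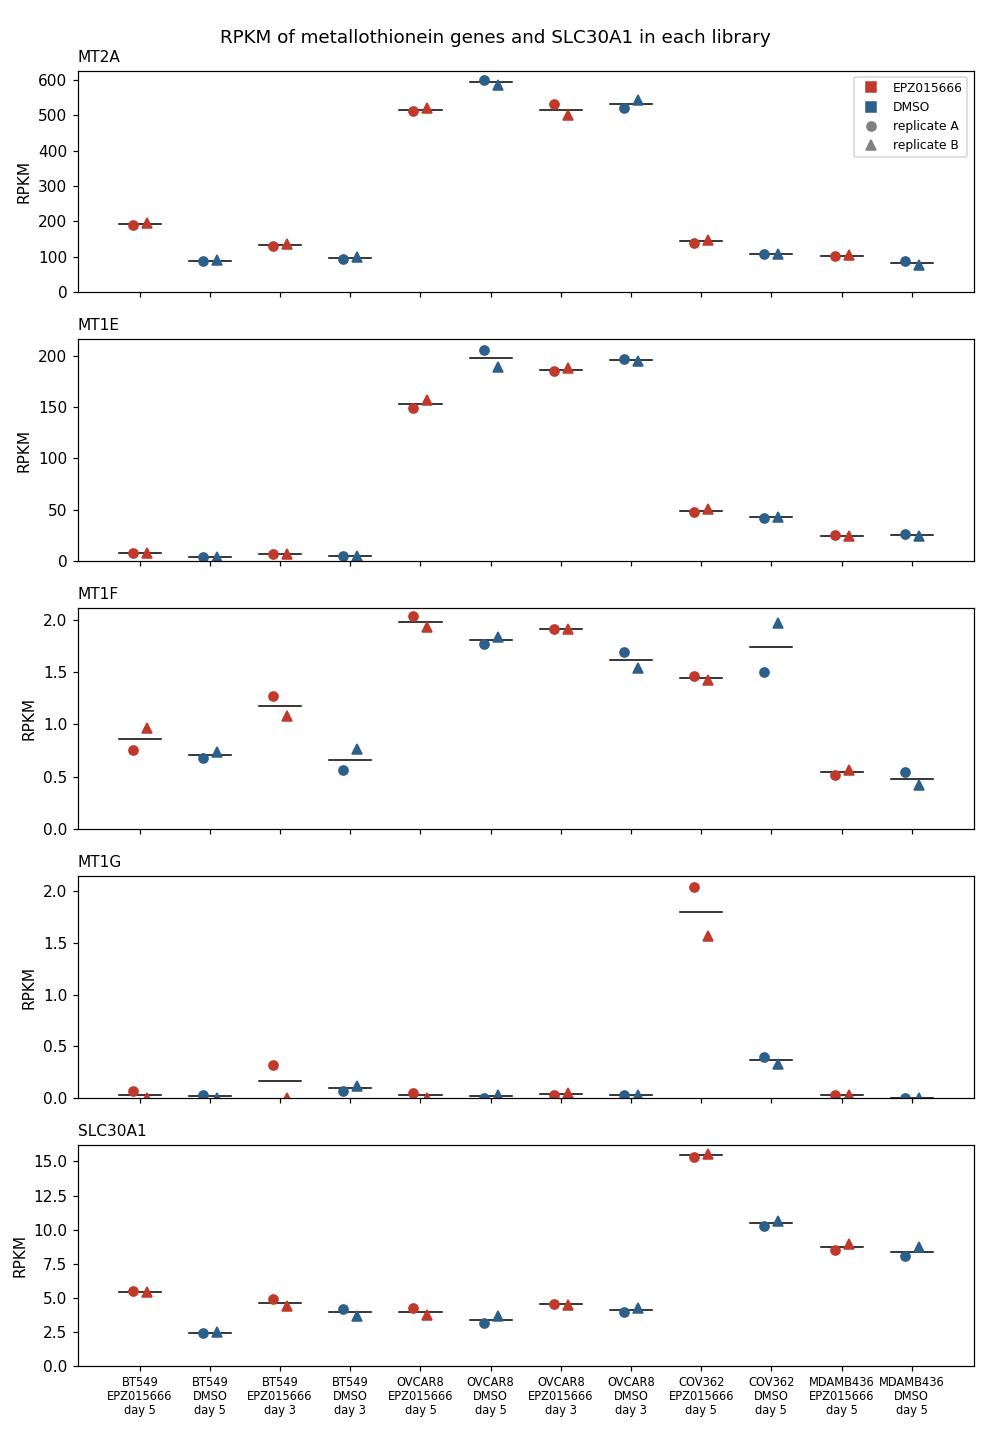
Deposited RPKM of each gene in each of the 24 libraries, 1 panel per gene with its own linear axis from 0; red marks EPZ015666 and blue DMSO, circles replicate A and triangles replicate B, and the bar is the mean of the 2 libraries. In BT549 at day 5 MT2A (191 and 195 against 87.5 and 90.6 RPKM) and SLC30A1 (5.50 and 5.45 against 2.43 and 2.50 RPKM) are more than doubled under the drug, while in OVCAR8 at day 5 MT2A and MT1E are lower under it.

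MT1E, a second zinc- and cadmium-binding isoform, followed MT2A in BT549 and in OVCAR8. It had 7.07 and 7.07 RPKM in BT549 at day 5 with EPZ015666, against 3.90 and 3.94 RPKM with DMSO, a ratio of 1.80 and a log2 change of 0.71. At day 3 BT549 had 6.25 and 6.84 RPKM with EPZ015666, against 4.42 and 4.95 RPKM with DMSO, a ratio of 1.40. In OVCAR8 at day 5 it had 149 and 157 RPKM with EPZ015666, against 206 and 189 RPKM with DMSO, a log2 change of -0.37 ± 0.050. Both drug libraries were lower there, and the same was true by a smaller margin at day 3, with 185 and 188 RPKM with EPZ015666 against 197 and 195 RPKM with DMSO. COV362 had 47.4 and 50.03 RPKM with EPZ015666, against 41.9 and 42.7 RPKM with DMSO, a ratio of 1.15. In MDAMB436 the groups overlapped, with 24.8 and 24.3 RPKM with EPZ015666 and 26.0 and 23.6 RPKM with DMSO, although MT2A was higher in the same drug libraries.

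The balance between the 2 abundant isoforms moved the same way in the 4 lines at day 5. The ratio of MT1E to MT2A in BT549 was 0.0366 ± 0.000529 with EPZ015666 and 0.0440 ± 0.000846 with DMSO (SD, n = 2 each). In OVCAR8 it was 0.296 ± 0.00633 with EPZ015666 and 0.333 ± 0.0155 with DMSO, and in COV362 0.339 ± 0.000101 with EPZ015666 and 0.392 ± 0.00411 with DMSO. In MDAMB436 it was 0.239 ± 0.00757 with EPZ015666 and 0.302 ± 0.00997 with DMSO. In each line both drug libraries lay below both vehicle libraries at day 5. At day 3 the ratios overlapped, with 0.0493 ± 0.00168 with EPZ015666 and 0.0489 ± 0.00158 with DMSO in BT549, and 0.362 ± 0.0194 with EPZ015666 and 0.368 ± 0.0142 with DMSO in OVCAR8. The RPKM values are per kilobase of the whole gene span, introns included. Another choice of gene length would scale the ratio by the same factor in every library.

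**Figure D3:**
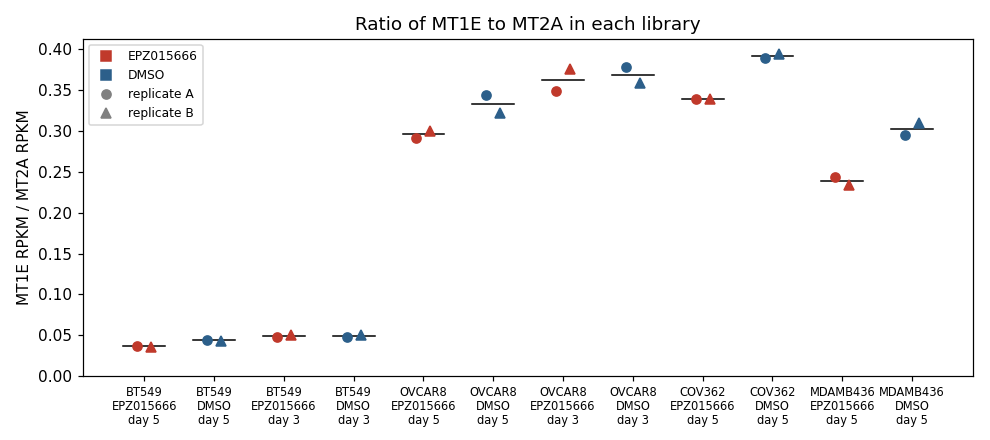
Ratio of MT1E RPKM to MT2A RPKM in each library (linear axis from 0; red EPZ015666, blue DMSO, circle replicate A, triangle replicate B, bar the mean of 2). At day 5 the EPZ015666 libraries lie below the DMSO libraries in all 4 lines, for example 0.239 against 0.302 on average in MDAMB436, while at day 3 they overlap.

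The RPKM of the 4 metallothionein members was also summed. The sum is per kilobase of gene span and leaves out MT1X and other family members, of which MT1L and MT1M were more abundant than MT1F in OVCAR8. Per length of the union of all annotated exons MT1E would weigh more, with 308 against 198 RPKM in OVCAR8 on DMSO at day 5. For MT2A that union is its whole span of 1299 bases, so its value would not change. Shares per length of a single transcript were not computed. BT549 at day 5 summed to 201 ± 2.79 with EPZ015666 and 93.7 ± 2.28 with DMSO (SD, n = 2 each), and at day 3 141 ± 4.002 with EPZ015666 and 101 ± 5.25 with DMSO. In OVCAR8 at day 5 it was 671 ± 11.9 with EPZ015666 and 793 ± 21.1 with DMSO. In COV362 it was 196 ± 6.81 with EPZ015666 and 152 ± 1.16 with DMSO, and in MDAMB436 128 ± 1.44 with EPZ015666 and 108 ± 10.1 with DMSO. MT2A made up 94.4% to 96.0% of the sum in the BT549 groups and 70.9% to 80.4% in the groups of the other 3 lines. The BT549 sum at day 5 under the drug was above that of COV362 cells on vehicle and below every OVCAR8 group.

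MT1F and MT1G, 2 further isoforms of the cluster, were much less abundant. MT1F averaged at most 1.98 RPKM in any group. BT549 at day 3 had 1.27 and 1.08 RPKM with EPZ015666, against 0.562 and 0.764 RPKM with DMSO, and at day 5 0.758 and 0.970 RPKM with EPZ015666, against 0.678 and 0.734 RPKM with DMSO. In OVCAR8 it was higher under the drug while MT2A and MT1E were not: at day 5 it had 2.03 and 1.93 RPKM with EPZ015666 against 1.77 and 1.83 RPKM with DMSO, and at day 3 1.91 and 1.91 RPKM with EPZ015666 against 1.70 and 1.54 RPKM with DMSO. In COV362 it had 1.47 and 1.42 RPKM with EPZ015666, against 1.504 and 1.97 RPKM with DMSO. That gap rests on DMSO replicate B: without it the log2 change was -0.04, against -0.16 ± 0.086 with all libraries. In MDAMB436 it was 0.516 and 0.567 RPKM with EPZ015666 and 0.547 and 0.420 RPKM with DMSO, which overlap.

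MT1G was nearly silent outside COV362. In COV362 it had 88 and 71 reads (2.04 and 1.56 RPKM) with EPZ015666, against 17 and 20 reads (0.397 and 0.329 RPKM) with DMSO, a ratio of 4.97. The gene passed the limit of a mean of 1 RPKM over the libraries of the line through the drug group alone. In BT549 EPZ015666 day 3 replicate A it had 11 reads and in replicate B 0. Every other library held 4 reads or fewer, so no change could be read there at this depth.

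SLC30A1, the zinc exporter, showed its largest drug difference in BT549 at day 5, and the next in COV362. In BT549 at day 5 it had 5.50 and 5.45 RPKM with EPZ015666, against 2.43 and 2.50 RPKM with DMSO, a ratio of 2.22 and a log2 change of 0.90 ± 0.065. At day 3 it had 4.92 and 4.41 RPKM with EPZ015666, against 4.23 and 3.70 RPKM with DMSO, a ratio of 1.18. In COV362 it had 15.4 and 15.6 RPKM with EPZ015666, against 10.3 and 10.7 RPKM with DMSO, a ratio of 1.48 and a log2 change of 0.52 ± 0.029. Drug and vehicle libraries did not overlap in these 3 comparisons. OVCAR8 libraries did not overlap either, by smaller margins, with 4.24 and 3.78 RPKM with EPZ015666 against 3.14 and 3.66 RPKM with DMSO at day 5, and 4.58 and 4.52 RPKM with EPZ015666 against 3.98 and 4.29 RPKM with DMSO at day 3. In MDAMB436 the groups overlapped, with 8.54 and 8.96 RPKM with EPZ015666 and 8.06 and 8.70 RPKM with DMSO.

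**Figure D4:**
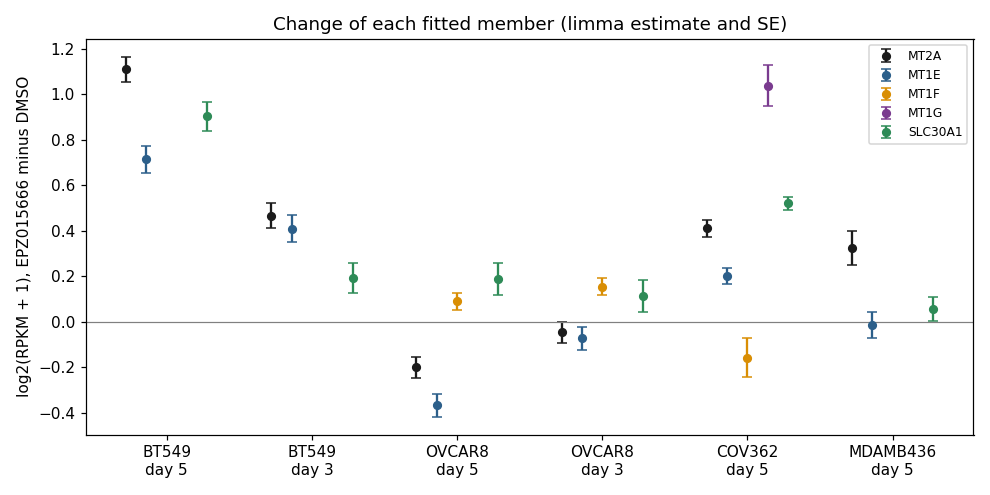
Change of each gene in the 6 drug comparisons, as the difference of mean log2(RPKM + 1), EPZ015666 minus DMSO, with its SE from limma; a gene with a mean under 1 RPKM in a line has no point. MT2A reaches 1.11 and SLC30A1 0.90 in BT549 at day 5, MT2A and MT1E lie below 0 in OVCAR8, and MT1G (1.04) stands highest in COV362.

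The vehicle cultures of BT549 and OVCAR8 also differed between days. The DMSO libraries compared here entered the drug changes with which the members were chosen, so these values too are a description, without a test. SLC30A1 was lower in BT549 on DMSO at day 5 (2.46 ± 0.050 RPKM) than at day 3 (3.96 ± 0.374 RPKM, SD, n = 2 each), a log2 change of -0.52 ± 0.065. The 2.22-fold day 5 drug ratio of this gene is thus taken over a lower vehicle level: EPZ015666 cultures at day 5 (5.47 ± 0.032 RPKM) stood 1.17-fold above EPZ015666 cultures at day 3 (4.66 ± 0.365 RPKM). MT2A had 89.1 ± 2.23 RPKM at day 5 and 95.8 ± 4.69 RPKM at day 3 on DMSO (log2 change -0.10 ± 0.055). MT1E had 3.92 ± 0.023 RPKM at day 5 and 4.68 ± 0.381 RPKM at day 3 (log2 change -0.21 ± 0.060). Among all 6249 genes tested in BT549 by limma at an adjusted p under 0.05, 10.7% were higher and 6.02% lower at day 5 on vehicle.

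In OVCAR8 on DMSO the members did not move together. MT2A had 594 ± 8.97 RPKM at day 5 and 533 ± 16.7 RPKM at day 3 (log2 change 0.16 ± 0.045), with both day 5 libraries the higher. SLC30A1 had 3.40 ± 0.373 RPKM at day 5 and 4.13 ± 0.220 RPKM at day 3 (log2 change -0.22 ± 0.070), with both day 5 libraries the lower. MT1E had 198 ± 12.2 RPKM at day 5 and 196 ± 1.39 RPKM at day 3, which overlap, and MT1F 1.80 ± 0.046 RPKM at day 5 and 1.62 ± 0.112 RPKM at day 3. Among all 6328 genes tested in OVCAR8, 20.7% were higher and 15.9% lower at day 5 on vehicle.

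Without drug the 4 lines held very different amounts of these mRNAs. The tests between lines use DMSO day 5 libraries that also entered the drug changes, so they are not fully independent of the choice of members. At day 5 on DMSO, MT2A averaged 594 ± 8.97 RPKM in OVCAR8, 108 ± 0.316 RPKM in COV362, 89.1 ± 2.23 RPKM in BT549 and 82.3 ± 8.29 RPKM in MDAMB436 (SD, n = 2 each). OVCAR8 stood above COV362 by a log2 difference of 2.45 ± 0.057 (limma adjusted p = 1.99e-15), and COV362 above BT549 by 0.28 ± 0.057 (limma adjusted p = 0.000327). BT549 and MDAMB436, next to each other in this order, did not pass the threshold (log2 difference 0.12 ± 0.057, limma adjusted p = 0.0681), but the call depends on the fit: over the alternatives the difference ran from -0.03 to 0.22 and the limma adjusted p from 0.00177, without MDAMB436 DMSO replicate A, to 0.808. MT1E ran from 198 ± 12.2 RPKM in OVCAR8 through 42.3 ± 0.568 RPKM in COV362 and 24.8 ± 1.69 RPKM in MDAMB436 to 3.92 ± 0.023 RPKM in BT549. Every step of that order passed the threshold, among them BT549 minus MDAMB436 at -2.39 ± 0.056 on the log2 scale (limma adjusted p = 2.09e-15).

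The exporter was ordered differently from the metallothioneins. SLC30A1 averaged 10.5 ± 0.267 RPKM in COV362, 8.38 ± 0.456 RPKM in MDAMB436, 3.40 ± 0.373 RPKM in OVCAR8 and 2.46 ± 0.050 RPKM in BT549. OVCAR8, with the most MT2A, was thus below COV362 in SLC30A1 by a log2 difference of -1.39 ± 0.065 (OVCAR8 minus COV362, limma adjusted p = 1.16e-11). Neighbours in the order differed as well, COV362 from MDAMB436 by 0.29 ± 0.065 (limma adjusted p = 0.000663) and OVCAR8 from BT549 by 0.34 ± 0.065 (limma adjusted p = 0.000155). MT1F averaged 1.80 ± 0.046 RPKM in OVCAR8 and 1.73 ± 0.326 RPKM in COV362, which were not told apart (limma adjusted p = 0.633), then 0.706 ± 0.039 RPKM in BT549 and 0.483 ± 0.090 RPKM in MDAMB436. Such differences between lines were common. Of the 6542 genes tested, 84.4% passed between OVCAR8 and COV362, 83.8% between OVCAR8 and BT549 and 87.3% between OVCAR8 and MDAMB436. The shares were 84.7% between COV362 and BT549, 84.3% between COV362 and MDAMB436 and 86.1% between BT549 and MDAMB436.

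Further metallothioneins were measurable in OVCAR8 and COV362, and are the nearest relatives of the members. MT1M, another MT1 isoform, rose under the drug in all 3 comparisons in which it was tested. It averaged 6.33 RPKM with EPZ015666 and 4.84 RPKM with DMSO in OVCAR8 at day 5 (limma adjusted p = 0.0107), 7.86 RPKM with EPZ015666 and 5.92 RPKM with DMSO at day 3 (limma adjusted p = 0.0128), and 2.34 RPKM with EPZ015666 and 1.78 RPKM with DMSO in COV362 (limma adjusted p = 0.0410). MT1L, annotated as a transcribed pseudogene of the cluster, fell in OVCAR8, to 13.4 RPKM with EPZ015666 against 23.4 RPKM with DMSO at day 5 (limma adjusted p = 0.000410), and rose in COV362, to 3.54 RPKM with EPZ015666 against 1.86 RPKM with DMSO (limma adjusted p = 0.00176). MT1A rose in COV362, to 2.22 RPKM with EPZ015666 against 1.30 RPKM with DMSO (limma adjusted p = 0.00219). All 3 of the other metallothioneins tested in COV362 thus rose, against 39.3% of all genes tested. Their median log2 change was 0.48, against 0.03 over all 6300 genes tested. In OVCAR8 the 2 tested ones went in opposite ways at both days.

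MTF1, the zinc sensor, was under 1 RPKM in every group and so outside the fit on RPKM. It had 0.872 and 0.856 RPKM with EPZ015666 in COV362, against 0.571 and 0.621 RPKM with DMSO. BT549 at day 5 had 0.678 and 0.620 RPKM with EPZ015666, against 0.705 and 0.661 RPKM with DMSO. In the alternative fit on reads recovered from the RPKM values (limma-voom), which keeps such long genes, MTF1 rose in COV362 (log2 change 0.52 ± 0.056, adjusted p = 1.08e-06), and in BT549 at day 5 its change was 0.01 ± 0.083 (limma-voom adjusted p = 0.964).

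The zinc importers bring zinc into the cytosol from outside or from organelles. SLC39A13 (ZIP13), a transporter of the Golgi and vesicles, fell in all 6 comparisons. It averaged 3.80 RPKM with EPZ015666 and 6.41 RPKM with DMSO in BT549 at day 5 (log2 change -0.62 ± 0.059, limma adjusted p = 0.000345), and its other log2 changes ran from -0.41 in BT549 at day 3 to -0.24 in COV362. SLC39A6 (ZIP6), of the plasma membrane, rose in BT549 at day 5 (0.32, limma adjusted p = 0.00221), in OVCAR8 at day 5 (0.17, limma adjusted p = 0.00671), in COV362 (0.48, limma adjusted p = 0.000287) and in MDAMB436 (0.15, limma adjusted p = 0.0480). SLC39A4 (ZIP4), the intestinal zinc importer, fell in BT549 at day 5 (-0.43, limma adjusted p = 0.00381) and OVCAR8 at day 5 (-0.45, limma adjusted p = 0.000427) and rose in COV362 (0.21, limma adjusted p = 0.00608). SLC39A7 (ZIP7), which releases zinc from the endoplasmic reticulum, fell in OVCAR8 at day 5 (-0.42, limma adjusted p = 0.000205), BT549 at day 5 (-0.20, limma adjusted p = 0.0356) and MDAMB436 (-0.25, limma adjusted p = 0.00895), and rose in COV362 (0.32, limma adjusted p = 0.00175). Of 14 importers, 6 were tested in BT549 at day 5, where 2 rose and 3 fell, against 17.7% and 22.7% of all genes tested. Of the 6 in COV362, 4 rose and 2 fell, against 39.3% and 31.5% of all genes tested. Of the 9 other zinc exporters and vesicle loaders, 1 (SLC30A6) could be tested on RPKM, in OVCAR8 and COV362, and it fell in COV362 (-0.10, limma adjusted p = 0.0230).

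**Figure D5:**
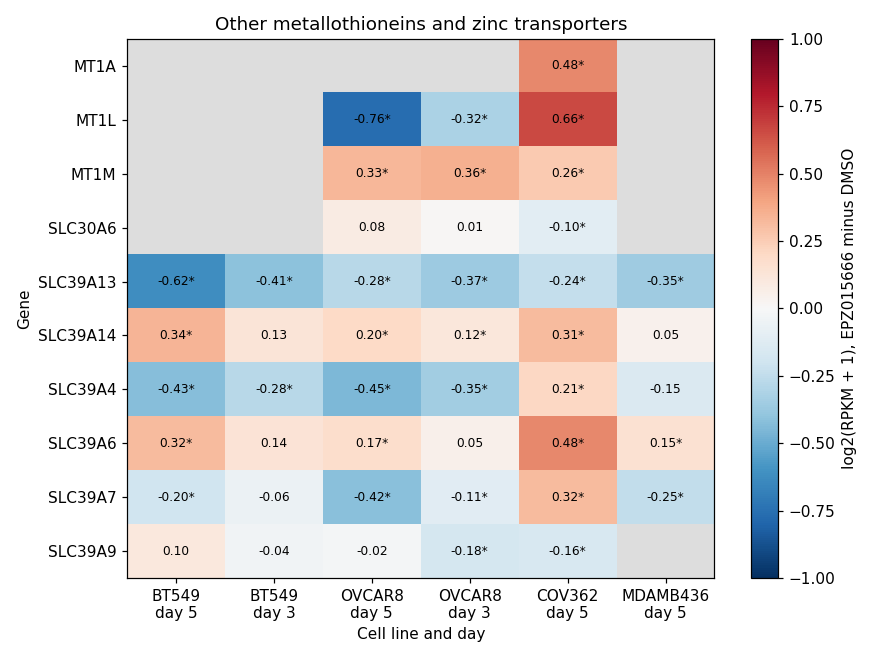
Log2 change (log2(RPKM + 1), EPZ015666 minus DMSO) of the other metallothioneins, zinc exporters and importers in the 6 drug comparisons; an asterisk marks a limma adjusted p under 0.05 and grey a gene with a mean under 1 RPKM in that line. SLC39A13 is lower in all 6, and MT1L is lower in OVCAR8 (-0.76 at day 5) and higher in COV362 (0.66).

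Other genes that metals induce went both ways beside the members. Of the 8 heat shock genes, HSPH1, a co-chaperone of HSP70, rose in all 6 comparisons, by 0.65 ± 0.052 on the log2 scale in BT549 at day 5 (limma adjusted p = 0.000178), and also by 0.65 ± 0.029 in OVCAR8 at day 5 (limma adjusted p = 3.35e-05), where MT2A was lower. HSPA8, the constitutive HSP70, rose by 0.51 in BT549 at day 5 (limma adjusted p = 0.000404). HSPB1 fell in BT549 at day 5 (-0.48, limma adjusted p = 0.0237) and in OVCAR8 at day 5 (-0.59, limma adjusted p = 0.000719). HSPA1A fell in MDAMB436 (-0.31, limma adjusted p = 0.00567) and changed by -0.05 in BT549 at day 5 (limma adjusted p = 0.610). Of the 8, 4 rose and 2 fell in BT549 at day 5, against 17.7% and 22.7% of all genes tested, with a median of 0.12. In MDAMB436, 1 rose and 6 fell, against 19% and 23.2%, with a median of -0.18. Of the oxidative stress genes, GCLM, a subunit of the enzyme that starts glutathione synthesis, rose in BT549 at day 5 (0.47, limma adjusted p = 0.000776), while NQO1, a quinone reductase, fell there (-0.34, limma adjusted p = 0.00359) and in COV362 (-0.56, limma adjusted p = 0.000277). HMOX1, a classical cadmium-induced gene, had a log2 change of 0.08 in BT549 at day 5 (limma adjusted p = 0.385) and rose in MDAMB436 (0.16, limma adjusted p = 0.0495). In COV362 HMOX1 was under the filter, with 0.823 ± 0.0091 RPKM with EPZ015666 and 0.355 ± 0.066 RPKM with DMSO (SD, n = 2 each).

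The glucocorticoid list holds the receptor and its target genes, and the IL-6 and STAT3 list holds genes of that pathway. Glucocorticoids and IL-6 are known inducers of MT2A, but targets such as PER1, KLF9 and SOCS3 are readouts of the pathways and not inducers. Of the 4 glucocorticoid genes tested in BT549 at day 5, 3 fell, against 22.7% of all genes tested, among them PER1, a clock gene (-0.35, limma adjusted p = 0.00225), and KLF9, a transcription factor (-0.23, limma adjusted p = 0.00598), and 0 rose. In OVCAR8 at day 5, 2 of the 3 tested rose and 0 fell, against 21.1% and 35.1% of all genes. KLF9 is 1 of the 2, but its drug groups carried it past the filter, so it is given by its values. It averaged 1.825 RPKM with EPZ015666 and 1.11 RPKM with DMSO at day 5, and 1.25 RPKM with EPZ015666 and 0.844 RPKM with DMSO at day 3. PER1 was under the filter in OVCAR8, with 0.811 RPKM with EPZ015666 and 1.13 RPKM with DMSO at day 5. In COV362 the 2 tested rose, against 39.3% of all genes. These were PER1 (0.28, limma adjusted p = 0.00107) and ERRFI1 (0.35, limma adjusted p = 0.000794). KLF9 was under the filter there, with 0.626 RPKM with EPZ015666 and 1.16 RPKM with DMSO. The filter thus bears on these counts. In MDAMB436, 1 of the 2 tested fell and 0 rose, against 23.2% and 19% of all genes. In BT549 at day 5, 3 of the 5 tested genes of the IL-6 and STAT3 list fell and 1 rose, against 22.7% and 17.7% of all genes. The feedback inhibitor SOCS3 was among those that fell (-0.42, limma adjusted p = 0.00217). The vehicle level of these genes had risen between the days in BT549, at day 5 minus day 3 by 0.22 for PER1 (limma adjusted p = 0.0316), 0.25 for KLF9 (limma adjusted p = 0.0132) and 0.40 for SOCS3 (limma adjusted p = 0.00981). SOCS3 in BT549 drug cultures had 21.7 RPKM at day 5 and 20.4 RPKM at day 3. In OVCAR8 at day 5, where MT2A was lower, SOCS3 fell by 0.85 on the log2 scale (limma adjusted p = 8.39e-05) and the transcription factor CEBPD by 0.99 (limma adjusted p = 4.61e-05). There too the vehicle had risen, at day 5 minus day 3 by 0.98 for SOCS3 (limma adjusted p = 0.000481) and 1.02 for CEBPD (limma adjusted p = 0.000442). OVCAR8 drug cultures had 7.64 RPKM of SOCS3 at day 5 and 5.52 RPKM at day 3, and 57.6 RPKM of CEBPD at day 5 and 46.9 RPKM at day 3. In COV362, 4 of the 6 tested genes of the IL-6 and STAT3 list rose and 1 fell, against 39.3% and 31.5% of all genes tested. IL6 is 1 of the 4, but it passed the filter through the drug group alone, so it is given by its values: 1.83 and 1.89 RPKM with EPZ015666, against 0.219 and 0.219 RPKM with DMSO. Genes next to the metallothionein cluster on chromosome 16 went both ways. In COV362, 4 of the 7 tested neighbours rose and 3 fell, against 39.3% and 31.5% of all genes tested. Among them were HERPUD1, of the endoplasmic reticulum stress response (0.61, limma adjusted p = 0.000264), and COQ9, of coenzyme Q synthesis (-0.48, limma adjusted p = 0.000369). Whether any of these genes has a part in the members' levels was not tested.

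The counts over all 97 genes of the lists are set here beside the shares of the whole table. Of the 42 tested in BT549, 11 rose at day 5 and 15 fell, against 17.7% and 22.7% of all genes tested; at day 3, 3 rose and 3 fell, against 9.22% and 10.8%. In OVCAR8 at day 5, 14 of 47 rose and 19 fell, against 21.1% and 35.1%; at day 3, 13 rose and 16 fell, against 15.6% and 21.4%. In COV362, 26 of 42 rose and 10 fell, against 39.3% and 31.5% of all genes, and the median log2 change of the list genes was 0.17, against 0.03 over all genes. In MDAMB436, 8 of 37 rose and 15 fell, against 19% and 23.2%. Single libraries decide some of these counts. The total of 26 in BT549 at day 5 became 13 to 17 without either day 5 library of EPZ015666 or DMSO, and the total of 6 at day 3 became 3 without any of those or without EPZ015666 day 3 replicate B. The total of 29 in OVCAR8 at day 3 became 15 without DMSO day 3 replicate A, 10 without DMSO day 3 replicate B and 16 without EPZ015666 day 3 replicate B. In MDAMB436 the total of 23 became 10 without EPZ015666 replicate A and 9 without EPZ015666 replicate B.

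Across the 24 libraries, with the mean of each line taken out, MT1E had a Pearson r of 0.84 with MT2A and SLC30A1 one of 0.72. The low genes MT1F and MT1G had 0.30 and 0.26. MT1G was nearly silent outside COV362, so its r cannot be read as a looser link. Other genes ran closer to MT2A than SLC30A1 did. Among genes with a mean of at least 5 RPKM in each line, the highest r was that of RUVBL2, an ATPase of chromatin remodelling complexes (0.88), followed by CCT7, a chaperonin subunit (0.86), HNRNPH3, a splicing factor (0.86), EMC4, of the membrane insertion complex (0.85), and PABPC4, a poly(A)-binding protein (0.84). For SLC30A1 they were RANGAP1, of nuclear transport (0.91), MYBBP1A, a nucleolar protein (0.90), EIF3B, of the translation initiation factor eIF3 (0.89), CCT6A, a chaperonin subunit (0.89), and AURKA, a mitotic kinase (0.88). These correlations describe libraries that share line, drug and day. With the line means out they hold the drug changes with which the members were chosen, so they are a description, without a test.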

How the data were processed

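Stranded poly(A) RNA-seq was made from 24 libraries of 4 cell lines, per the labels' protocols. The authors counted reads with featureCounts on GRCh38, per the submitters' processing notes, and deposited RPKM values per gene; strand and multi-mapping settings are not given in the sources. The RPKM divides by the whole gene span, found by recovering whole reads with GENCODE release 29 spans: 99.96% to 99.99% of values under 1000 reads came out within 0.02 of a whole number. The libraries differed by more than counting noise (chi-square ratio 1.86 to 5.10), so none was merged.

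log2(RPKM + 1) was fitted per line with limma 3.58.1 (R 4.3.3), 1 mean per group and trend, for genes with a mean of at least 1 RPKM; p-values are two-sided and adjusted by Benjamini-Hochberg over all genes, with a threshold of 0.05 (for lines, over all genes and 6 pairs). The fit was tested on simulated data. Members and lists were chosen with earlier results of these data known. From each list the text names up to 4 genes, those with the lowest adjusted p in any drug comparison. MT1A, SLC30A6, HSPA1A and HSPB1 were named after their values were seen. Alternatives were a pseudocount of 0.1, no filter, a minimum of 5 RPKM, median-of-ratios scaling, a replicate block, limma-voom on recovered reads and leaving out each library. Sequences are from GENCODE release 29 transcripts on GRCh38 and RefSeq promoters of GRCh38.p14, which matched 2 of the members.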

Additional observations from a re-analysis of the deposited data

Results flagged for a closer look

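In some comparisons every EPZ015666 library of one line lay above its DMSO libraries while every EPZ015666 library of another line lay below. How many of all genes did the same was not worked out, so this is not shown to be particular to the members. For MT2A at day 5 the log2(RPKM + 1) change in BT549 minus that in OVCAR8 was 1.31 (1.11 in BT549 and -0.20 in OVCAR8). The MT2A change in OVCAR8 minus that in COV362 was -0.61, and in OVCAR8 minus that in MDAMB436 -0.52. For MT1E at day 5 the change in BT549 minus that in OVCAR8 was 1.08, and the change in OVCAR8 minus that in COV362 was -0.57. For MT1E at day 3 the change in BT549 minus that in OVCAR8 was 0.48. For MT1F at day 5 the change in BT549 minus that in COV362 was 0.28, and the change in OVCAR8 minus that in COV362 was 0.25; the lower value in COV362 rests on 1 DMSO library. These differences were not tested, since the genes were chosen with drug changes of these libraries known.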

How the results depend on the processing

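In every alternative run the drug change of each member fitted kept its sign, except for MT1E in MDAMB436, whose change of -0.01 lay between -0.08 and 0.05. The MT2A change in BT549 at day 5 ran from 1.08 to 1.20, that of SLC30A1 from 0.89 to 1.23 and that of MT1G in COV362 from 1.0 to 2.28. Summed as recovered reads and scaled to each library's recovered total, the metallothioneins changed by 1.17 in BT549 at day 5. Summed as deposited RPKM, with its own scaling, they changed by 1.09. For the DMSO change between days the alternatives are given as values only, without a test, since the choice of members used those libraries. SLC30A1 in BT549 ran from -0.73 to -0.44. In OVCAR8 SLC30A1 (-0.22) was also -0.22 with no filter, with the replicate block and with median-of-ratios scaling. Over all changed settings it ran from -0.29 to -0.22. It ran from -0.31 to -0.14 with 1 library left out. MT2A in OVCAR8 (0.16) was also 0.16 with no filter and with the replicate block, and ran from 0.14 to 0.17 over all changed settings. It ran from 0.12 to 0.19 with 1 library left out. MT1E in BT549 (-0.21) was also -0.21 with a minimum of 5 RPKM and ran from -0.31 to -0.21 over all changed settings. It ran from -0.27 to -0.14 with 1 library left out. In OVCAR8 MT1E was -0.0137 in the fit on recovered reads, against 0.0078. It ran from -0.0548 to 0.0705 with 1 library left out. MT2A in BT549 minus MDAMB436 on DMSO ran from -0.03 to 0.22.

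List genes past the threshold numbered, with a minimum of 5 RPKM, 16 in BT549 day 5, 17 in OVCAR8 day 3, 18 in OVCAR8 day 5 and 12 in COV362, against 26, 29, 33 and 36. Fewer genes are tested there, and the share of all genes called at that limit is not given here. On recovered reads more genes are tested. Of 11720 in BT549 day 3, 1472 were higher and 1548 lower, and of 12480 in OVCAR8 day 5, 3702 and 3172. Of 12500 in COV362, 4240 were higher and 4596 lower, and of 12090 in MDAMB436, 3121 and 2724. Beside these, list genes past the threshold numbered 22 in BT549 day 3, 50 in OVCAR8 day 5, 55 in COV362 and 43 in MDAMB436. With 1 library left out they ran from 3 to 8 in BT549 day 3, 13 to 26 in BT549 day 5, 10 to 26 in OVCAR8 day 3 and 9 to 21 in MDAMB436. The letters A and B were not taken as pairs: the deviations of same-lettered libraries correlated at -0.20 to 0.21 over the 6 comparisons, and the replicate block left 22 list genes in BT549 day 5. Depth limits MT1G outside COV362.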

Other observations

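The other zinc exporters and vesicle loaders were mostly under 1 RPKM, since their genes are long, but had enough reads for limma-voom on recovered reads; this was chosen after the values were seen, and the genes went both ways. SLC30A5 (ZnT5), which loads zinc into the early secretory pathway, rose in all 6 drug comparisons, by 0.35 ± 0.080 on the log2 scale in BT549 at day 5 (limma-voom adjusted p = 0.00150) and 0.49 ± 0.084 in COV362 (limma-voom adjusted p = 0.000113), with the weakest call in BT549 at day 3 (0.22, limma-voom adjusted p = 0.0496). SLC30A7 (ZnT7), of the Golgi, rose in BT549 at day 5 (0.39, limma-voom adjusted p = 0.000462), OVCAR8 at day 5 (0.24, limma-voom adjusted p = 0.000474) and MDAMB436 (0.26, limma-voom adjusted p = 0.00551), and had a log2 change of 0.01 in COV362 (limma-voom adjusted p = 0.850). SLC30A6 (ZnT6) rose in BT549 at day 5 (0.31, limma-voom adjusted p = 0.00284) and OVCAR8 at day 5 (0.17, limma-voom adjusted p = 0.0119) and fell in COV362 (-0.20, limma-voom adjusted p = 0.000578). SLC30A9 fell in COV362 (-0.30, limma-voom adjusted p = 1.0e-05) and in OVCAR8 at day 3 (-0.19, limma-voom adjusted p = 0.00682). SLC30A3 fell in OVCAR8 at day 3 (-0.54, limma-voom adjusted p = 0.0126).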
